A study of Arabidopsis thaliana with 222 samples.

Results

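Roots of Arabidopsis thaliana accession Col-0, the wild type, grown with the single bacterial strain L384 were set against Col-0 roots grown with no bacteria (NB), with 6 RNA-seq libraries in each group out of 222 in the series. The 12 libraries were taken by their labels (genotype Col 0, treatment L384 or NB), and no expression value was used to choose them. L384 is a Pararhizobium strain, an alphaproteobacterium of the Rhizobiales. Seedlings grew for 7 days without microbes and then for 7 days on plates that carried either L384 or no strain, and each library was made from at least 10 pooled roots, with 3 replicates in each of 2 repeats of the experiment. The other groups used here were Col-0 with each of 15 other strains (90 libraries), among them the Rhizobiales strains L344 (Bosea) and L469 (Methylobacterium), and the lateral root mutant lbd16-1 with L384 and with NB (6 libraries each). The mutant carries a defect in LBD16, a transcription factor of lateral root initiation, and was the only mutant with L384 libraries in the series.

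A root meets a bacterium first through cell-surface receptors that bind bacterial molecules, and the kinase and WRKY transcription factor cascades behind them make up pattern-triggered immunity. Salicylic acid and N-hydroxypipecolic acid extend that response, and tryptophan-derived camalexin and indole glucosinolates are its chemical arm. The same roots take up nitrate, phosphate, sulfate and iron under the control of starvation-responsive regulators, and place lateral roots and root hairs under the control of auxin and ethylene.

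The deposited table held whole-number estimated counts for 32311 genes, with totals of 16578827 to 27176290 in the L384 libraries and 10255732 to 22349949 in the NB libraries, inside the range of 10255732 to 29735838 of the whole series. Levels are given as CPM, a count divided by the library total scaled by its TMM factor and set to a common total, which are not corrected for gene length, so a level was compared between groups and never between genes. Nothing in the labels says which libraries belong to which repeat or that they came from separate cultures, so p-values measure the spread between libraries. In the main fit that spread was estimated over all 222 libraries of the series, not from the compared groups alone. Replicates differed by more than counting noise in every pair, where the chi-square divided by its degrees of freedom was 4.92 to 16.8 within L384 and 5.38 to 45.3 within NB, so no library was a copy of another. NB replicate 5 lay farthest from its group, with a median absolute deviation of 0.242 on the log2 scale against at most 0.0985 for any L384 library. The 16 root cell markers summed to 15990 to 21170 CPM in L384 roots and 15120 to 22190 CPM in NB roots. The 21 photosynthesis genes, which mark green tissue, summed to 2070 CPM in L384 replicate 1 and 732 to 1021 CPM in the other L384 libraries, against 923 to 1319 CPM in NB roots. In whole-root RNA, fewer cells of a type and less RNA per cell cannot be told apart.

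Growth with L384 changed the level of 5968 of 21635 genes tested, or 27.6%, at an adjusted p under 0.05. Of these, 2791 were higher (12.9% of genes tested) and 3177 were lower (14.7%) than in NB roots. With genes filtered at 1 CPM in 6 libraries and 1000 counts the balance turned, with 3134 higher and 2793 lower. Most changes were small, since 651 genes (3.01%) also differed by at least 1 on the log2 scale, 404 of them higher (1.87%) and 247 lower (1.14%). The CPM of the 6 L384 and the 6 NB libraries did not overlap for 2153 genes (9.95%), with L384 above NB for 1012 (4.68%) and below it for 1141 (5.27%). Leaving out any single library gave 4748 to 6485 genes. A fit of the 12 libraries alone called 3910 genes. Library numbers in the labels run in 2 ranges with 3 libraries of each group in each, and the fit called 3017 genes in libraries 1 to 111 alone and 3898 in libraries 112 to 222 alone. Throughout, the error after a log2 fold change is its standard error, and adjusted p is from edgeR's quasi-likelihood test over all genes tested.

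The promoters of a few genes that carry the comparison are shown first, as the 250 bases before the annotated start in RefSeq's TAIR10.1 assembly, read 5′ to 3′ on the gene's strand. They were chosen after the values were seen. The first 4 are genes higher in L384 roots than in NB roots that encode a receptor kinase of the flagellin response (FRK1), the cytochrome P450 that modifies indole glucosinolates (CYP81F2), the transcription factor WRKY53 and the lectin receptor kinase AT2G29220. Capitals mark the W-box, TTGACC or TTGACT on either strand, the element that WRKY factors bind.
FRK1: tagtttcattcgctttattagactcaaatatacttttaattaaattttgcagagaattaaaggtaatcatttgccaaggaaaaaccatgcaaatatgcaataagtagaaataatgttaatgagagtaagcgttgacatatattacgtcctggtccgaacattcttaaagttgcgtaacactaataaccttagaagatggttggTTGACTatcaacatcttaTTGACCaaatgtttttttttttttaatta
CYP81F2: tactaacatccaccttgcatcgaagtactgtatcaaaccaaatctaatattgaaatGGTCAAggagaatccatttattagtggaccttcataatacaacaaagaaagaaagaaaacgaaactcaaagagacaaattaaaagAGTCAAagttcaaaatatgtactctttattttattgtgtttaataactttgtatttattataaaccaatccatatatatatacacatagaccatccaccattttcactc
WRKY53: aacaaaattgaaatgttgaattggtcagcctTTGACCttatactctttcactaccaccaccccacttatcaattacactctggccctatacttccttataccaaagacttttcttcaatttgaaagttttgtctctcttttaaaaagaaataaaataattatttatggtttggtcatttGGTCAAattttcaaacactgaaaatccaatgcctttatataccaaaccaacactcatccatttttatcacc
AT2G29220: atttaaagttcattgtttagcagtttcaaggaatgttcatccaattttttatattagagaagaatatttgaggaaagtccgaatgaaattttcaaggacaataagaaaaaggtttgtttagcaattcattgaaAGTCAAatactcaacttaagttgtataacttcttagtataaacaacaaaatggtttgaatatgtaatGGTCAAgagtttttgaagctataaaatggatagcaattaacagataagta
These windows are chr2:8329945-8330194 on the minus strand for FRK1, chr5:23187590-23187839 on the plus strand for CYP81F2, chr4:12393983-12394232 on the minus strand for WRKY53 and chr2:12564692-12564941 on the minus strand for AT2G29220. Each of the 4 held 2 W-boxes, and 28.4% of 27382 promoters of this length held at least 1. Among the 15 genes named below as higher than NB by the largest margins, 9 promoters (60.0%) held one, and among the 15 named as lower, 6 did (40.0%). Over whole gene lists, whether their members moved or not, a W-box stood in 24 of 38 promoters of pattern-triggered immunity genes (63.2%) and in 3 of 20 of salicylic acid genes (15.0%). A motif match describes letters in this window and nothing more.

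The auxin-conjugating enzymes GH3.2 and GH3.3 were called in opposite directions with L384, although the call of GH3.3 was lost without Col-0 NB replicate 1. The iron regulators bHLH38 and bHLH100 had the largest called differences of response between lbd16-1 and Col-0 among the listed genes. The call of bHLH100 was also lost without Col-0 NB replicate 1. For the GH3 pair, capitals mark the auxin response element (TGTCTC or TGTCGG, either strand).
GH3.2: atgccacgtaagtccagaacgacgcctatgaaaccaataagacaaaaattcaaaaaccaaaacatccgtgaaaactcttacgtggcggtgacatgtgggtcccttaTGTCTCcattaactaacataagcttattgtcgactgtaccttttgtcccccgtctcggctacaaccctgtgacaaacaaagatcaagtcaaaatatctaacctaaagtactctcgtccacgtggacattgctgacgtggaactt
GH3.3: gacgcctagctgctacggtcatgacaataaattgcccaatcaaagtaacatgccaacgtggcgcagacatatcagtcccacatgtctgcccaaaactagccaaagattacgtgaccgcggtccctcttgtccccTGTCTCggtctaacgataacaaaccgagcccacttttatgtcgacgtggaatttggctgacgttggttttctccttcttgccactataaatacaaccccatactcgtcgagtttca
For the bHLH pair, capitals mark the G-box CACGTG.
bHLH38: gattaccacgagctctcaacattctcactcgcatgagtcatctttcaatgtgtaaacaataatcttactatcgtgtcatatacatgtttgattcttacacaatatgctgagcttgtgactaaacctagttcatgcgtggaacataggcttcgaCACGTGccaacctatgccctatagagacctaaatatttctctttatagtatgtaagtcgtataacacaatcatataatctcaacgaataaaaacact
bHLH100: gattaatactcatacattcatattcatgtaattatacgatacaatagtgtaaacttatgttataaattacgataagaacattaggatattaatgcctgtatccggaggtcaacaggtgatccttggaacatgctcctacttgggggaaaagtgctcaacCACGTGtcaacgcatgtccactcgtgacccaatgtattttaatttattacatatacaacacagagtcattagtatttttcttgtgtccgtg
The windows are chr4:17579368-17579617 on the plus strand for GH3.2, chr2:9866563-9866812 on the minus strand for GH3.3, chr3:21085246-21085495 on the minus strand for bHLH38 and chr2:17199455-17199704 on the minus strand for bHLH100. The auxin response element stood in 14.7% of all promoters and in 10 of 24 of the auxin response list (41.7%). The G-box stood in 6.5% of all promoters and in 4 of 24 of the iron uptake list (16.7%).

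The 15 genes named for the largest rises with L384 had log2 fold changes of 3.2 to 5.54 over NB roots. The subtilase AT4G10540, a secreted protease, ran at 1.64 to 2.87 CPM (median 1.96) in L384 roots, against 0 to 0.137 CPM (median 0) in NB roots (log2 fold change 5.54 ± 0.72, adjusted p = 9.5e-11). AT5G33355, a defensin-like peptide, ran at 3.84 to 8.38 CPM (median 4.97) in L384 roots, against 0 to 0.876 CPM (median 0.141) in NB roots (log2 fold change 4.71 ± 0.79, adjusted p = 4.6e-07). The leucine-rich repeat kinase AT2G14440 ran at 1.03 to 2.1 CPM (median 1.75) in L384 roots, against 0 to 0.195 CPM (median 0.0699) in NB roots (log2 fold change 4.45 ± 0.56, adjusted p = 3.4e-11). None of these 3 genes had an NB library as high as the lowest L384 library, and at least 1 NB library of each was listed at 0. The class III peroxidase AT3G03670 ran at 29.7 to 34.0 CPM (median 31.5) in L384 roots, against 0.225 to 3.80 CPM (median 1.19) in NB roots (log2 fold change 4.38 ± 0.51, adjusted p = 1.1e-12). AT2G29220, whose promoter is shown above, ran at 24.6 to 32.7 CPM (median 26.9) in L384 roots, against 0.393 to 3.44 CPM (median 0.961) in NB roots (log2 fold change 4.29 ± 0.60, adjusted p = 2.1e-09). For both, the L384 libraries were tightly grouped and every NB library lay far below them. WAK3, a wall-associated kinase that spans the cell wall and the membrane, ran at 2.06 to 3.4 CPM (median 2.77) in L384 roots, against 0 to 0.681 CPM (median 0.255) in NB roots (log2 fold change 3.33 ± 0.61, adjusted p = 3.9e-06).

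The other 9 of the 15 genes named for the largest rises had log2 fold changes of 3.2 to 4.24. They were AT3G21305, the sterol desaturase family gene CYP710A3, the LURP-one-like gene AT1G33840, the subtilase AT4G10530, the cupredoxin AT3G60270, the lectin receptor kinase AT2G29250, the carbohydrate-binding protein gene AT1G24485, AT3G48640 and AT1G33890 of the AIG1 family. AT3G21305 was listed at 0 in 5 of 6 NB libraries. CYP710A3 stood highest in L384 replicate 6, at 5.77 CPM. AT4G10530 and AT4G10540, AT2G29220 and AT2G29250, and WAK3 belong to families of neighbouring similar genes, so reads could be shared between copies and the split between them is uncertain.

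**Figure D1:**
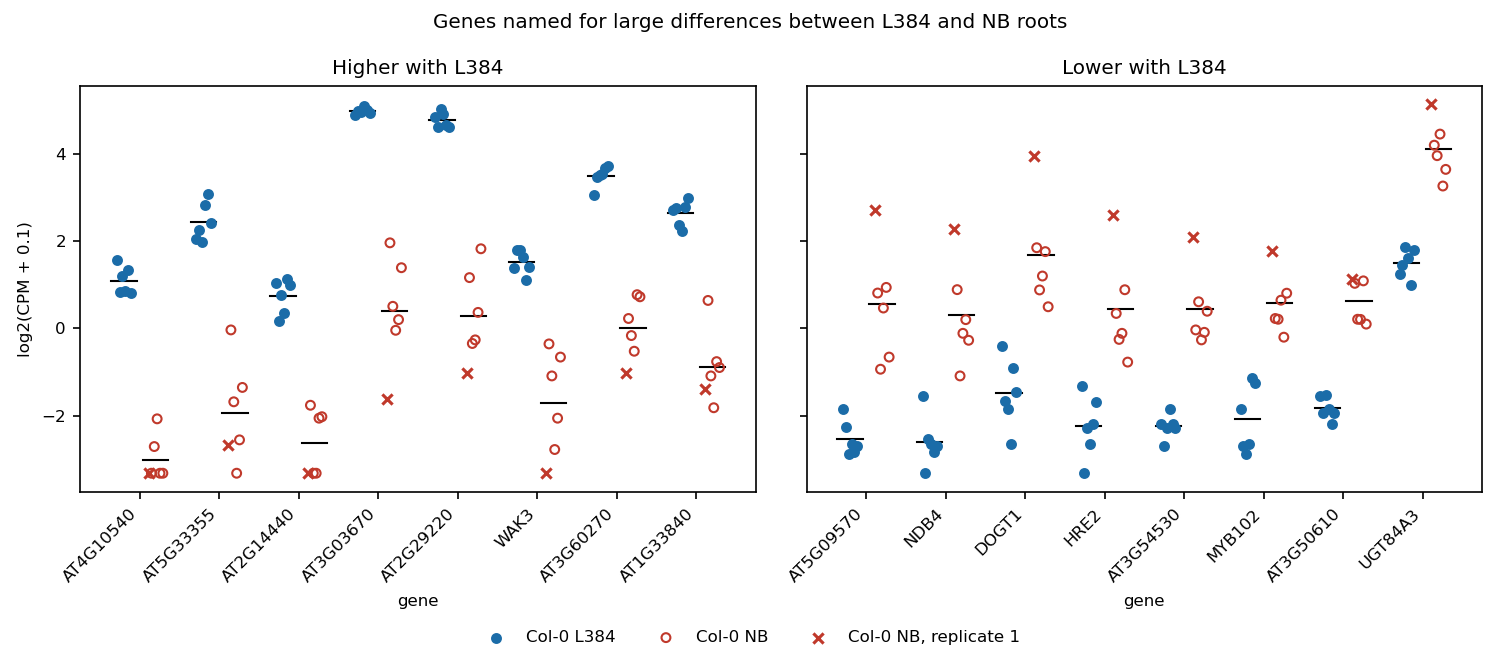
Levels of 8 genes higher (left panel) and 8 genes lower (right panel) in Col-0 roots with L384 than with NB, as log2(CPM + 0.1), for each of 6 L384 libraries (filled, left of each pair) and 6 NB libraries (open, right). The horizontal bars are group means on this scale. For every gene shown the 2 groups do not overlap, and NB replicate 1 (marked with a cross) is the highest NB library for each of the 8 genes on the right.

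The genes that fell most with L384 include several of mitochondrial and low-oxygen stress. AT5G09570, a small Cox19-like protein gene, ran at 0.0356 to 0.179 CPM (median 0.0559) in L384 roots, against 0.422 to 6.52 CPM (median 1.47) in NB roots (log2 fold change -4.67 ± 0.58, adjusted p = 1.9e-11). NDB4, an alternative NAD(P)H dehydrogenase of mitochondria, ran at 0 to 0.239 CPM (median 0.0559) in L384 roots, against 0.370 to 4.72 CPM (median 0.937) in NB roots (log2 fold change -4.30 ± 0.59, adjusted p = 1.2e-09). HRE2, an ethylene response factor of the hypoxia response, ran at 0 to 0.298 CPM (median 0.113) in L384 roots, against 0.485 to 5.95 CPM (median 0.996) in NB roots (log2 fold change -3.75 ± 0.52, adjusted p = 1.6e-09). In all 3 the highest NB library was replicate 1, well above the other NB libraries, and the L384 libraries lay below every NB library. DOGT1, a glucosyltransferase that acts on brassinosteroids and on the mycotoxin deoxynivalenol, ran at 0.0589 to 0.657 CPM (median 0.240) in L384 roots, against 1.31 to 15.3 CPM (median 2.74) in NB roots (log2 fold change -3.90 ± 0.58, adjusted p = 1.7e-08). UGT84A3, a glucosyltransferase of phenolic acids, ran at 1.90 to 3.56 CPM (median 2.80) in L384 roots, against 9.51 to 35.1 CPM (median 16.9) in NB roots (log2 fold change -2.75 ± 0.26, adjusted p = 4.7e-17). Its groups were far apart. The remaining 10 named genes, AT3G54530, MYB102, AT3G50610, AT4G12735, AT2G36970, the glycine-rich protein gene GRP20, AT1G64340, the lectin gene AT1G52120, the beta-glucosidase BGLU28 and AT2G21640, had log2 fold changes of -3.71 to -2.22.

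NB replicate 1 stood apart in many of the genes that were lower in L384 roots, being the highest NB library for HRE2, DOGT1, NDB4, bHLH38, PDC1 and others. Without it 5298 genes were called, 2239 higher and 3059 lower.

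Salicylic acid genes were the list with the highest median change. Of 17 tested, 9 rose (52.9%) by edgeR and by DESeq2 and 11 at an unadjusted p under 0.05, and 0 fell by any of these. The median log2 fold change was 0.53 against 0.00 over all genes, and 9 to 10 rose when any library was left out. FMO1, which makes N-hydroxypipecolic acid, ran at 8.95 to 15.1 CPM (median 12.6) in L384 roots, against 0.899 to 4.90 CPM (median 2.28) in NB roots (log2 fold change 2.36 ± 0.44, adjusted p = 6.2e-06). PBS3, which couples isochorismate to glutamate on the way to salicylic acid, ran at 8.36 to 14.8 CPM (median 11.9) in L384 roots, against 0.169 to 6.94 CPM (median 2.57) in NB roots (log2 fold change 2.02 ± 0.44, adjusted p = 0.00012). CBP60G, a transcription factor of the pathway, ran at 80.6 to 111 CPM (median 98.3) in L384 roots, against 12.6 to 42.1 CPM (median 25.0) in NB roots (log2 fold change 1.99 ± 0.32, adjusted p = 2.2e-07). ALD1, the aminotransferase upstream of FMO1, ran at 25.2 to 37.0 CPM (median 32.6) in L384 roots, against 6.18 to 16.6 CPM (median 9.61) in NB roots (log2 fold change 1.70 ± 0.20, adjusted p = 9.8e-13). In each of these 4 genes every L384 library exceeded every NB library. WRKY38, WRKY70, ICS1, SAG101 and NPR1 also rose, by 0.17 to 1.32 on the log2 scale.

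Pattern-triggered immunity genes rose more often than genes in general, with 16 of 38 higher (42.1%) and 3 lower (7.89%), and a median of 0.15. FLS2, the flagellin receptor, had low counts and ran at 0.640 to 1.70 CPM (median 0.790) in L384 roots, against 0.112 to 0.681 CPM (median 0.370) in NB roots (log2 fold change 1.44 ± 0.43, adjusted p = 0.0066). AT4G28460, whose product is not characterised in the annotation, ran at 3.73 to 4.43 CPM (median 4.03) in L384 roots, against 0.769 to 2.43 CPM (median 1.39) in NB roots (log2 fold change 1.43 ± 0.29, adjusted p = 3.7e-05). MPK11, a mitogen-activated protein kinase, ran at 3.6 to 4.59 CPM (median 4.25) in L384 roots, against 0.916 to 2.62 CPM (median 1.29) in NB roots (log2 fold change 1.42 ± 0.27, adjusted p = 7e-06). FLS2 groups overlapped at their edges, and those of AT4G28460 and MPK11 did not. FRK1 ran at 0.810 to 2.35 CPM (median 2.22) in L384 roots, against 0.487 to 1.02 CPM (median 0.719) in NB roots (log2 fold change 1.40 ± 0.32, adjusted p = 0.00024), and a single low L384 library, replicate 2, overlapped the NB range. WRKY53, whose promoter is shown above and which was named after its value was seen, rose by 1.0 ± 0.26 (adjusted p = 0.0017). The 3 members that fell were PHI1, RBOHD, the oxidase of the immune oxidative burst, and PROPEP1. Leaving out a library gave 11 to 16 higher members, and 7 were higher in libraries 1 to 111 alone against 11 in libraries 112 to 222 alone.

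Camalexin and indole glucosinolate genes followed, with 9 of 21 higher (42.9%), 2 lower and a median of 0.18. CYP81F2 ran at 36.3 to 58.5 CPM (median 43.4) in L384 roots, against 9.77 to 31.5 CPM (median 16.6) in NB roots (log2 fold change 1.31 ± 0.31, adjusted p = 0.00045). IGMT2, which methylates the product of CYP81F2, ran at 42.0 to 69.8 CPM (median 48.7) in L384 roots, against 11.6 to 37.1 CPM (median 24.7) in NB roots (log2 fold change 1.13 ± 0.28, adjusted p = 0.00066). Both genes had all L384 libraries above all NB libraries. IGMT1 and IGMT2 are close neighbours of high similarity, so their split is uncertain. CYP82C2, which hydroxylates indole carbonyl nitrile, and the glutathione transferase GSTF6 were also called, at 1.5 and 1.03 on the log2 scale, but each lost its call in a fit of the 12 libraries alone (adjusted p = 0.082 for CYP82C2 and 0.098 for GSTF6) and without NB replicate 1 (0.086 and 0.11). F6′H1, which opens coumarin synthesis, ran at 378 to 483 CPM (median 426) in L384 roots, against 161 to 305 CPM (median 222) in NB roots (log2 fold change 0.94 ± 0.15, adjusted p = 6.8e-08). The jasmonate list had few calls, with 1 of 24 members higher (4.17%) and 0 lower, against 12.9% higher and 14.7% lower over all genes tested.

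**Figure D2:**
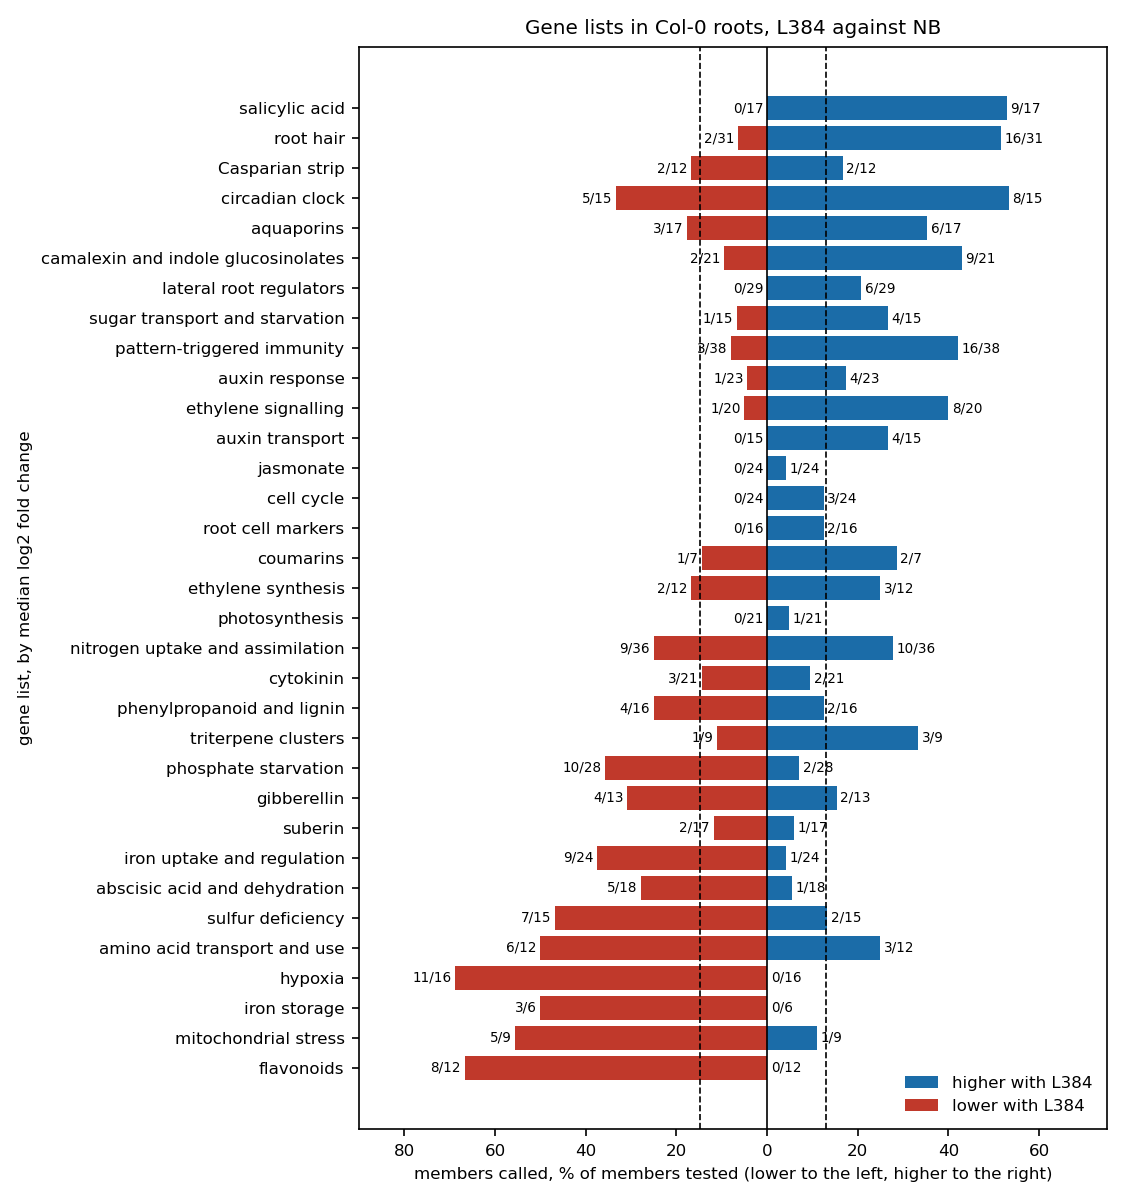
Members of each of 33 gene lists called higher (bars to the right) or lower (bars to the left) in Col-0 roots with L384 than with NB, as a percentage of the members tested, with the counts printed at the bars. The dashed lines mark the percentages over all genes tested, 12.9 higher and 14.7 lower. Salicylic acid, root hair and circadian clock lists extend farthest to the right, and hypoxia and flavonoid lists farthest to the left.

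Nitrogen uptake and assimilation genes were called in both directions. Of 36 tested members 10 rose (27.8%) and 9 fell (25.0%), with a median of 0.01. NRT2.1, a high-affinity nitrate transporter, ran at 41.9 to 57.3 CPM (median 45.6) in L384 roots, against 4.62 to 13.5 CPM (median 8.38) in NB roots (log2 fold change 2.49 ± 0.32, adjusted p = 9.5e-11). Its partner protein gene NRT3.1 rose by 0.70 ± 0.12, and the ammonium transporters AMT1;2 and AMT1;3 rose by 0.46 and 0.42. RFNR2, a root ferredoxin reductase that feeds nitrite reduction, ran at 247 to 316 CPM (median 259.5) in L384 roots, against 554 to 1026 CPM (median 728) in NB roots (log2 fold change -1.44 ± 0.14, adjusted p = 3e-17). G6PD3, a plastid glucose-6-phosphate dehydrogenase that supplies reductant, ran at 45.9 to 63.5 CPM (median 49.2) in L384 roots, against 106 to 219 CPM (median 126) in NB roots (log2 fold change -1.42 ± 0.12, adjusted p = 2e-19). UPM1, which makes the siroheme cofactor of nitrite reductase, ran at 144 to 178 CPM (median 154) in L384 roots, against 293 to 468 CPM (median 330.4) in NB roots (log2 fold change -1.15 ± 0.11, adjusted p = 1.7e-16). The L384 libraries lay below every NB library for all 3. NIR1, nitrite reductase itself, ran at 243 to 321 CPM (median 259) in L384 roots, against 394 to 853 CPM (median 531) in NB roots (log2 fold change -1.06 ± 0.13, adjusted p = 2.4e-12), and the nitrate reductase NIA2 fell by 0.51 ± 0.12 with overlapping groups. Whichever library was left out, 8 to 10 members were higher and 9 lower.

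Iron uptake and regulation genes mostly fell where they changed, with 9 of 24 lower (37.5%) and 1 higher (4.17%), and with 4 lower in libraries 1 to 111 alone against 10 in libraries 112 to 222 alone. Without NB replicate 1, which is among libraries 112 to 222, 6 were lower and 2 higher. NAS2, a nicotianamine synthase, ran at 38.4 to 84.0 CPM (median 51.1) in L384 roots, against 81.6 to 261 CPM (median 126) in NB roots (log2 fold change -1.38 ± 0.24, adjusted p = 1.7e-06). bHLH38, a regulator that partners FIT in iron deficiency, ran at 6.67 to 9.99 CPM (median 8.62) in L384 roots, against 10.9 to 51.2 CPM (median 16.9) in NB roots (log2 fold change -1.35 ± 0.29, adjusted p = 9.7e-05). NB replicate 1 was high for both, and the L384 libraries of bHLH38 still lay below every NB library, with log2 fold changes of -0.71 in libraries 1 to 111 and -1.78 in libraries 112 to 222. bHLH100 fell by 1.38 ± 0.49 (adjusted p = 0.024), a call that was lost without NB replicate 1 (adjusted p = 0.24). MYB10, a transcription factor of the same response, fell by 0.83 ± 0.21 with no overlap. The member that rose was IREG2, a vacuolar metal transporter, at 0.36 ± 0.13. Among 6 iron storage genes 3 fell and 0 rose by edgeR (0 higher also by DESeq2 or at an unadjusted p under 0.05), led by the vacuolar iron transporter family gene VTL1, by 0.61 ± 0.22, and the ferritin FER1, by 0.41 ± 0.12.

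Phosphate starvation genes fell in 10 of 28 cases (35.7%) and rose in 2 (7.14%). RNS1, a secreted ribonuclease, ran at 0.765 to 2.02 CPM (median 1.21) in L384 roots, against 3.06 to 4.66 CPM (median 3.35) in NB roots (log2 fold change -1.55 ± 0.36, adjusted p = 0.00038). PAP17, a purple acid phosphatase, ran at 17.1 to 24.0 CPM (median 22.1) in L384 roots, against 39.4 to 55.5 CPM (median 43.8) in NB roots (log2 fold change -1.1 ± 0.14, adjusted p = 4.8e-11). Neither gene had overlapping groups. The transporter PHT1;9 rose by 0.69 ± 0.14, and AT4, a non-coding RNA of the phosphate response, fell by 0.91 ± 0.26 with overlap. Sulfur deficiency genes fell in 7 of 15 cases (46.7%) and rose in 2 (13.3%). SDI1, which represses glucosinolate synthesis at low sulfur, ran at 13.0 to 19.7 CPM (median 15.4) in L384 roots, against 15.6 to 85.5 CPM (median 32.7) in NB roots (log2 fold change -1.37 ± 0.28, adjusted p = 5.2e-05), and its log2 fold change was -1.95 in libraries 1 to 111 and -0.35 in libraries 112 to 222. GGCT2;1, which degrades glutathione, fell by 0.80 ± 0.22 with overlap. The risers were the sulfate transporters SULTR1;1, by 0.89 ± 0.23, and SULTR1;2, which ran at 1087 to 1473 CPM (median 1221) in L384 roots, against 639 to 934 CPM (median 820.2) in NB roots (log2 fold change 0.67 ± 0.11, adjusted p = 8.2e-08). Within libraries 112 to 222 only 2 sulfur members were lower, against 8 within libraries 1 to 111.

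Hypoxia genes fell together, with 11 of 16 lower (68.8%), a median of -0.35 and 0 higher by edgeR or DESeq2 (1 at an unadjusted p under 0.05). HB1, the class 1 haemoglobin that scavenges nitric oxide, ran at 5.78 to 7.97 CPM (median 6.87) in L384 roots, against 12.7 to 39.8 CPM (median 18.0) in NB roots (log2 fold change -1.65 ± 0.20, adjusted p = 5.6e-12). PDC1, pyruvate decarboxylase of ethanol fermentation, ran at 15.0 to 27.0 CPM (median 19.1) in L384 roots, against 35.9 to 63.0 CPM (median 37.5) in NB roots (log2 fold change -1.06 ± 0.15, adjusted p = 4.3e-09). Each had every L384 library under every NB library. PCO2, a plant cysteine oxidase that senses oxygen, fell by 1.13 ± 0.26, and ADH1, alcohol dehydrogenase, fell by 0.74 ± 0.20 with overlapping groups. Whichever library was left out, 10 to 11 members were lower. In the mitochondrial stress list 5 of 9 fell, with AT2G21640 at -2.22, NAC13, the transcription factor of mitochondrial retrograde signalling, at -0.84, OM66 at -0.68, a call lost without NB replicate 1 (adjusted p = 0.087), and AOX1A, the alternative oxidase, at 81.5 to 92.6 CPM (median 88.8) in L384 roots, against 125 to 174 CPM (median 136) in NB roots (log2 fold change -0.68 ± 0.08, adjusted p = 1.3e-12). AOX1B was called higher at a level near 0 in every library except L384 replicate 5, and the call was lost without that library (adjusted p = 0.79).

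Flavonoid genes moved in 1 direction, with 8 of 12 lower (66.7%), a median of -0.52 and 0 higher by edgeR, by DESeq2 or at an unadjusted p under 0.05. F3H, flavanone 3-hydroxylase, ran at 122 to 156 CPM (median 146) in L384 roots, against 182 to 295 CPM (median 245) in NB roots (log2 fold change -0.75 ± 0.12, adjusted p = 2.4e-07). CHI, chalcone isomerase, ran at 64.8 to 75.6 CPM (median 69.5) in L384 roots, against 77.3 to 138 CPM (median 114) in NB roots (log2 fold change -0.66 ± 0.12, adjusted p = 3.2e-06). Both were lower in every L384 library than in every NB library, and F3′H and CHIL fell by 0.61 ± 0.14 and 0.53 ± 0.11 with overlap. In the fit of libraries 1 to 111 alone 3 members were lower, against 8 in that of libraries 112 to 222.

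Auxin response genes changed little as a list, with 4 of 23 higher (17.4%), 1 lower (4.35%) and a median of 0.14. GH3.2 ran at 75.9 to 130.2 CPM (median 101) in L384 roots, against 18.6 to 66.9 CPM (median 28.6) in NB roots (log2 fold change 1.65 ± 0.20, adjusted p = 6e-12). GH3.3 ran at 5.56 to 22.7 CPM (median 9.85) in L384 roots, against 14.8 to 76.9 CPM (median 22.5) in NB roots (log2 fold change -1.45 ± 0.41, adjusted p = 0.0038). The L384 libraries were all above NB for GH3.2, while for GH3.3 the groups overlapped and the call was lost without NB replicate 1 (adjusted p = 0.083) and with the 12 libraries alone (0.059). PBP1, which binds the auxin transport kinase PINOID, and IAA2, an auxin-induced repressor, rose by 1.16 ± 0.23 and 0.46 ± 0.08. In the auxin transport list 0 of 15 were lower by edgeR, by DESeq2 or at an unadjusted p under 0.05, and 4 were higher by edgeR. They were the kinase WAG2, by 0.61 ± 0.15, the efflux carrier ABCB19, by 0.36 ± 0.09, and the influx carriers AUX1, by 0.26 ± 0.06, and LAX3, by 0.18 ± 0.07, whose call was lost under DESeq2 (adjusted p = 0.052).

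Lateral root regulators rose in 6 of 29 cases (20.7%) by edgeR, against 12.9% of all genes tested, and in 5 by DESeq2. They fell in 0 by either (1 at an unadjusted p under 0.05). GATA23, a marker of founder cell identity, ran at 0.358 to 0.751 CPM (median 0.586) in L384 roots, against 0.137 to 0.292 CPM (median 0.218) in NB roots (log2 fold change 1.38 ± 0.35, adjusted p = 0.00095). LBD16, the gene mutated in lbd16-1, ran at 4.30 to 6.60 CPM (median 5.85) in L384 roots, against 3.6 to 5.45 CPM (median 4.46) in NB roots (log2 fold change 0.36 ± 0.12, adjusted p = 0.014), and LBD29 rose by 0.69 ± 0.26. Both LBD calls were lost with the 12 libraries alone (adjusted p = 0.07 for LBD16 and 0.098 for LBD29) and without NB replicate 1 (0.066 and 0.072). The receptor kinase gene ACR4 rose by 0.32 ± 0.11, a call lost without NB replicate 5 (adjusted p = 0.13) or L384 replicate 3 (0.061). Without L384 replicate 3, L384 replicate 5 or NB replicate 1 the list held 3 higher members.

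Root hair genes were another list with frequent rises, 16 of 31 higher (51.6%), 2 lower (6.45%) and a median of 0.40. RHS19, a root hair peroxidase, ran at 74.5 to 102 CPM (median 87.3) in L384 roots, against 30.1 to 65.1 CPM (median 44.4) in NB roots (log2 fold change 1.0 ± 0.19, adjusted p = 6.8e-06). AT4G26010, another peroxidase of the list, ran at 123 to 154 CPM (median 153) in L384 roots, against 50.3 to 90.3 CPM (median 78.3) in NB roots (log2 fold change 0.98 ± 0.16, adjusted p = 3.1e-07). The cell wall expansin EXPA7 rose by 0.55 ± 0.14, and RSL4, the transcription factor that sets hair length, by 0.56 ± 0.14. Groups did not overlap for RHS19, AT4G26010 or EXPA7 and overlapped for RSL4. XTH26, a xyloglucan endotransglucosylase, was called at 1.58 ± 0.47, with L384 replicate 5 the highest at 6.13 CPM, and lost its call without it (adjusted p = 0.08). RHS15 rose by 0.84 ± 0.28 with overlap, a call lost without NB replicate 3 (adjusted p = 0.063) or 5 (0.051). Leaving out a library gave 12 to 18 higher members, and 5 were higher in libraries 1 to 111 alone against 11 in libraries 112 to 222 alone.

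Ethylene synthesis genes were called in both directions, and signalling genes were called higher more often than lower. Of 12 synthesis genes 3 rose and 2 fell. The ACC synthase ACS7 moved most and ran at 1.71 to 2.98 CPM (median 2.02) in L384 roots, against 4.34 to 7.81 CPM (median 5.61) in NB roots (log2 fold change -1.40 ± 0.18, adjusted p = 3.3e-11). Another ACC synthase, ACS5, rose by 0.91 ± 0.23, the oxygenase family gene AT1G12010 rose by 0.66 ± 0.18 and the ACC oxidase ACO4 fell by 0.38 ± 0.09, each without overlap, and ACS2 was at -0.12 (adjusted p = 0.54). Of 20 signalling genes 8 rose (40.0%) and 1 fell, and 5 rose without NB replicate 5. EIL2, of the EIN3 family, rose by 1.18 ± 0.43 (adjusted p = 0.027) at under 1 CPM in every library of both groups, and its call was lost without L384 replicate 1 or 5 or without NB replicate 2, 3 or 4 (adjusted p = 0.054 to 0.093). ORA59, an ethylene response factor, rose by 0.74 ± 0.25, a call that was lost without NB replicate 1 (adjusted p = 0.10). The receptor ETR2 rose by 0.53 ± 0.17, the response factor ERF-1 by 0.45 ± 0.12 and the F-box gene EBF2 by 0.41 ± 0.09, while EIN3 and EIL1, the master transcription factors, were at 0.13 and 0.14. CTR1 and EIN2 were at 0.07 (adjusted p = 0.35) and 0.14 (adjusted p = 0.31).

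The remaining lists gave fewer or mixed calls. CKX2, a cytokinin oxidase, ran at 7.76 to 12.3 CPM (median 10.4) in L384 roots, against 2.25 to 7.57 CPM (median 4.08) in NB roots (log2 fold change 1.2 ± 0.30, adjusted p = 0.00081), in a list of 21 with 2 higher and 3 lower. Gibberellin genes fell in 4 of 13 cases, with the synthesis enzyme GA20OX2 at -1.09 ± 0.28 and no overlap. LHT1, an amino acid importer of the root surface, ran at 50.1 to 76.1 CPM (median 62.1) in L384 roots, against 8.48 to 28.4 CPM (median 18.9) in NB roots (log2 fold change 1.69 ± 0.19, adjusted p = 1.5e-13), while 6 of the 12 listed amino acid genes fell. DIN10, a raffinose synthase family gene of sugar starvation, ran at 283 to 418 CPM (median 324) in L384 roots, against 90.4 to 197 CPM (median 144) in NB roots (log2 fold change 1.24 ± 0.20, adjusted p = 2.8e-07). The clock repressor LHY ran at 43.3 to 60.8 CPM (median 50.1) in L384 roots, against 80.5 to 135 CPM (median 106) in NB roots (log2 fold change -1.06 ± 0.14, adjusted p = 8.2e-10), and 8 of 15 clock genes were higher and 5 lower, with 5 higher without L384 replicate 6 or without NB replicate 5. CYP707A3, which breaks down abscisic acid, rose by 1.01 ± 0.16 in a list of 18 with 1 higher and 5 lower. Aquaporins rose in 6 of 17 cases and fell in 3, with PIP2;4 at 0.82 ± 0.17 and PIP2;6 at -1.14 ± 0.21. Triterpene genes gave 3 higher and 1 lower of 9, Casparian strip genes 2 and 2 of 12, suberin genes 1 and 2 of 17, phenylpropanoid genes 2 and 4 of 16, coumarin genes 2 and 1 of 7, cell cycle genes 3 and 0 of 24, root cell markers 2 and 0 of 16 and photosynthesis genes 1 and 0 of 21. These small counts moved with single libraries, to between 1 and 5 higher for Casparian strip genes and between 0 and 4 higher for root cell markers.

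Against the mean of the other 15 strains, L384 changed 1433 of 21635 genes (6.62%), 654 higher (3.02%) and 779 lower (3.6%). The balance turned with the filter on low counts, at 754 higher and 676 lower with the stricter one and 704 and 652 with none. No gene separated the 6 L384 libraries fully from the 90 others, in either direction (0 of 21635). The comparison uses the same L384 libraries as that with NB. The receptor kinase AT2G29220 averaged 27.6 ± 3.43 CPM with L384, above the mean of each of the 15 strains, which had a median of 8.85 CPM (log2 fold change 2.08 ± 0.29, adjusted p = 1.2e-08). AT3G21305 was likewise above all 15 strain means, at 1.02 ± 0.350 CPM against a median strain mean of 0.0676 CPM (log2 fold change 3.87 ± 0.55, adjusted p = 4.8e-08). The subtilase AT4G10540 averaged 2.08 ± 0.497 CPM, and the only strain above it was L339 at 2.11 CPM (log2 fold change 2.37 ± 0.29, adjusted p = 9.8e-11). AT5G33355, AT2G14440 and WAK3 were also among the 10 largest rises, at 2.27, 1.8 and 1.79 on the log2 scale, with AT3G55790, AT2G23270 and CYP82C2. AT3G22121 completed the 10, but L384 replicate 1 alone reached 10.3 CPM and the call was lost without it (adjusted p = 0.75).

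Some defence genes were also higher with L384 than with the other strains. Salicylic acid genes were higher in 5 of 17 cases and lower in 1, pattern-triggered immunity genes in 6 and 1 of 38, and camalexin and indole glucosinolate genes in 6 and 0 of 21 (0 lower also by DESeq2 or at an unadjusted p under 0.05). CBP60G averaged 97.5 ± 10.7 CPM with L384, above all 15 strain means, whose median was 41.4 CPM (log2 fold change 1.27 ± 0.20, adjusted p = 6.5e-07). FMO1 averaged 12.3 ± 2.05 CPM, below L344 alone, with a median strain mean of 5.15 CPM (log2 fold change 1.36 ± 0.25, adjusted p = 3.5e-05). NRT2.1 averaged 48.1 ± 6.84 CPM, above all strain means, the highest being 47.7 CPM with L412 (log2 fold change 1.05 ± 0.19, adjusted p = 2e-05). Its list went more often the other way, with 5 of 36 nitrogen genes higher (13.9%) and 10 lower (27.8%). Over all genes tested 3.02% were higher and 3.6% lower. CKX2 at 1.66 and the coumarin gene F6′H1 at 0.64 on the log2 scale were also above every other strain mean.

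Auxin and root hair genes stood lower with L384 than with the other strains. Auxin response genes were lower in 9 of 23 cases (39.1%), with a median of -0.22, and root hair genes were lower in 15 of 31 (48.4%), with a median of -0.36, against 3.6% of all genes lower. No member of either was called higher by edgeR or DESeq2, and 1 auxin response and 0 root hair genes were higher at an unadjusted p under 0.05. GH3.3 averaged 11.4 ± 6.63 CPM with L384, below all 15 strain means, which had a median of 55.5 CPM (log2 fold change -2.02 ± 0.34, adjusted p = 4.9e-06). XTH26 averaged 2.83 ± 1.69 CPM against a median strain mean of 6.98 CPM and a highest of 70.0 CPM with RMF27 (log2 fold change -1.23 ± 0.28, adjusted p = 0.00082). RHS19 averaged 88.5 ± 11.0 CPM, above the NB mean of 44.5 CPM and below 12 of the 15 strain means (log2 fold change -0.52 ± 0.14, adjusted p = 0.0085). LBD29 averaged 4.59 ± 1.61 CPM against a median strain mean of 10.2 CPM (log2 fold change -1.04 ± 0.18, adjusted p = 7.1e-06). The list medians were thus positive against NB and negative against the other strains for both lists. Phosphate genes were higher in 7 of 28 cases and lower in 1, with 3 higher without L384 replicate 4 and 4 without replicate 5, and 0 of 21 photosynthesis genes were called by edgeR or DESeq2 although all 21 estimates were positive, with a median of 0.23 and 3 under an unadjusted p of 0.05, beside the high sum in L384 replicate 1.

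The other genes named as lower than the 15 strains were the dehydration genes RD29B and RAB18, AT2G38790, PR-1-LIKE, the sugar exporter SWEET12, the lipid-transfer protein gene EARLI1, the methyl esterase MES17, AT1G34520 and marneral synthase MRN1, with log2 fold changes of -1.66 to -1.36. RD29B, RAB18, AT2G38790 and SWEET12 each lost the call without any of L384 replicates 1, 2 or 3 in turn (adjusted p up to 0.14). PR-1-LIKE averaged 11.6 ± 3.68 CPM against a median strain mean of 34.7 CPM and held its call in every such fit (log2 fold change -1.63 ± 0.29, adjusted p = 2e-05). MES17 averaged 3.29 ± 0.679 CPM against a median of 9.28 CPM (log2 fold change -1.39 ± 0.24, adjusted p = 6.1e-06).

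**Figure D3:**
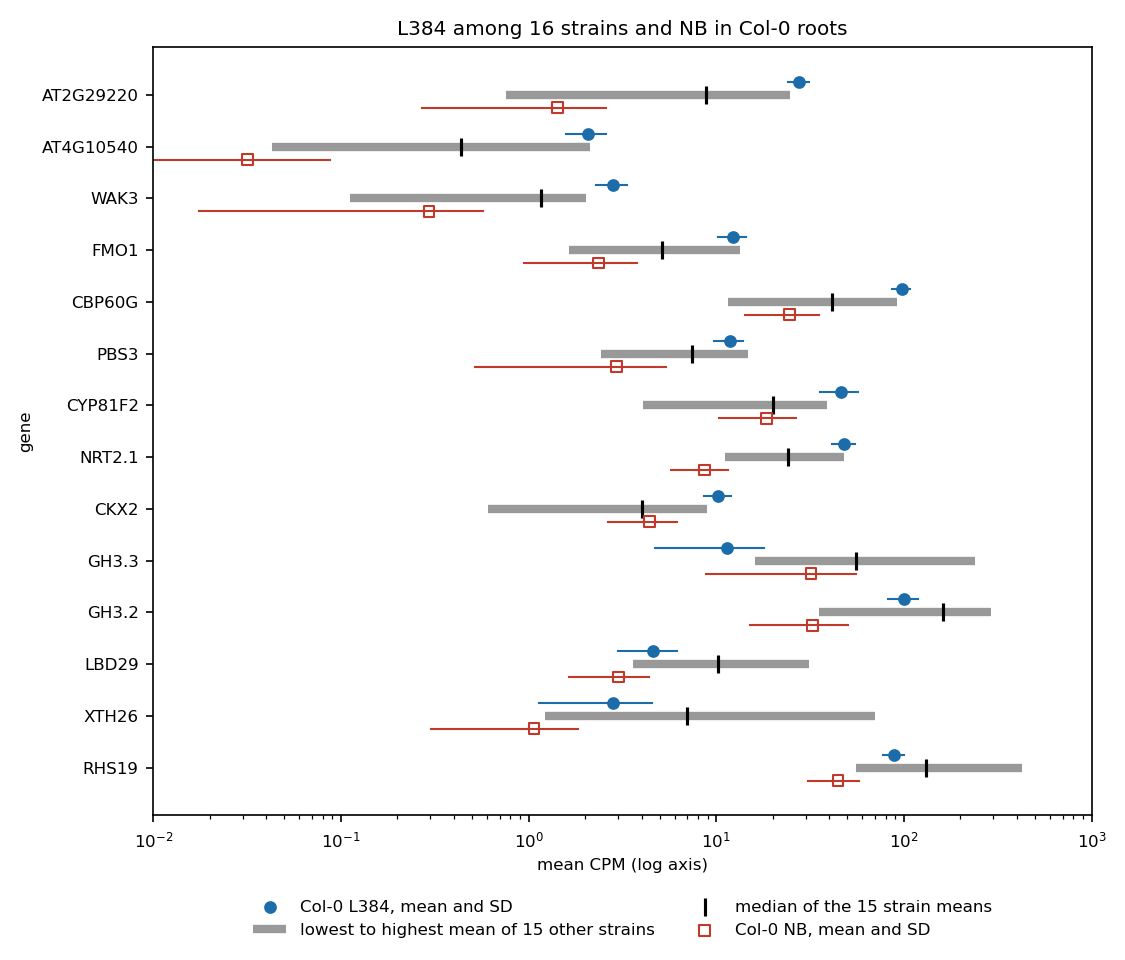
Mean CPM on a log axis of 14 genes in Col-0 roots with L384 (filled circles, bars are SD over 6 libraries), as the lowest, median and highest of the 15 other strains' means (grey line and tick), and in NB roots (open squares, bars are SD over 6 libraries, cut where they reach the axis floor). L384 lies at or near the upper end of the strain range for the defence genes and NRT2.1 and toward the lower end for GH3.3, LBD29 and the root hair genes.

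Among the Rhizobiales, L384 differed from the Bosea strain L344 in 866 genes (4.00%), 239 higher (1.1%) and 627 lower (2.90%). SWEET12, which exports sucrose, averaged 1.07 ± 0.782 CPM with L384 and 10.6 ± 4.82 CPM with L344 (log2 fold change -3.27 ± 0.52, adjusted p = 1.1e-06). By edgeR, sugar genes were lower in 5 of 15 cases, cytokinin genes in 5 of 21 and auxin response genes in 10 of 23, and 0 were higher in each. DESeq2 called 1 sugar gene and 0 of the others higher, and 1 sugar, 2 cytokinin and 1 auxin response gene were higher at an unadjusted p under 0.05. The cytokinin synthesis gene IPT3 and the hydroxylase CYP735A2 were at -0.74 and -1.0. Nitrogen genes were higher in 7 of 36 cases and lower in 2, with NRT2.1 at 1.13 and the ammonium transporter AMT1;3 at 0.44. PHT1;2, a phosphate transporter, averaged 9.55 ± 1.24 CPM with L384 and 3.90 ± 0.437 CPM with L344 (log2 fold change 1.29 ± 0.24, adjusted p = 5.2e-05), with reads possibly shared with the near-identical PHT1;1. The other genes named for rises were AT4G10540, AT1G54950, DREB1A and AT1G63570 (1.18 to 2.76), and for falls DIN11, THA1, AT1G72060 and HOL2 (-4.37 to -2.86), of which DIN11 was listed near 0 in every L384 library. The call of AT1G63570 was lost without L384 replicate 5 (adjusted p = 0.053). No salicylic acid gene was called by edgeR or DESeq2 (0 of 17), and 0 had an unadjusted p under 0.05.

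L384 differed from the Methylobacterium strain L469 in 532 genes (2.46%), 206 higher (0.952%) and 326 lower (1.51%), and in 229 without L384 replicate 4 and 328 without L384 replicate 6. GH3.3 averaged 11.4 ± 6.63 CPM with L384 and 55.5 ± 9.07 CPM with L469 (log2 fold change -2.25 ± 0.41, adjusted p = 0.00012). Auxin response genes were lower in 8 of 23 cases and root hair genes in 7 of 31, with 0 higher in both by edgeR, by DESeq2 or at an unadjusted p under 0.05. LSU1, a low-sulfur response gene, averaged 30.6 ± 3.80 CPM with L384 and 13.3 ± 1.55 CPM with L469 (log2 fold change 1.21 ± 0.21, adjusted p = 3.2e-05), and sulfur genes were higher in 4 of 15 cases and lower in 0 by edgeR or DESeq2 (1 at an unadjusted p under 0.05). The remaining named genes were AT3G21305, the protein phosphatase AT4G32950, AT3G05400 and SQE6, which were higher (1.06 to 3.99), and PR-1-LIKE, FRO5, PIRL8 and MES17, which were lower (-1.92 to -1.54). The call of AT3G21305 was lost under DESeq2 (adjusted p = 0.057). FRO5, a ferric reductase family gene, lost the call without any of L384 replicates 4 to 6 in turn (adjusted p up to 0.15). Again 0 of 17 salicylic acid genes were called by edgeR or DESeq2, with 3 higher and 2 lower at an unadjusted p under 0.05, and 1 of 38 pattern-triggered immunity genes, WRKY29.

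In lbd16-1 the targeted gene was lower but not absent. LBD16 ran at 2.51 to 3.87 CPM (median 3.3) in lbd16-1 with L384 and 2.17 to 2.99 CPM (median 2.59) in lbd16-1 with NB, against 4.30 to 6.60 CPM (median 5.85) in Col-0 with L384 and 3.6 to 5.45 CPM (median 4.46) in Col-0 with NB. Within a treatment every lbd16-1 library lay below every Col-0 library. The counts are per gene and do not say which part of the transcript was read. L384 changed 4584 genes in lbd16-1 (21.2%), 2458 higher (11.4%) and 2126 lower (9.83%) than its own NB roots. Of these, 2741 were called in Col-0 too, which was 59.8% of the lbd16-1 calls and 45.9% of the Col-0 calls, and 2708 of the shared genes moved in the same direction, against 33 that did not.

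The difference between the responses, lbd16-1 minus Col-0, was called for 301 genes (1.39%), 178 higher (0.823%) and 123 lower (0.569%), and 29 of them (0.134%) differed by at least 1 on the log2 scale, 20 higher (0.0924%) and 9 lower (0.0416%). The count fell to 165 without Col-0 NB replicate 5 and to 180 without Col-0 L384 replicate 2, and reached 545 without Col-0 NB replicate 6. With genes filtered at 1 CPM in 6 libraries and 1000 counts, 134 were higher and 164 lower. A fit of only these 4 groups called 56. Libraries 1 to 111 alone called 15, and libraries 112 to 222 alone called 218. No member of the salicylic acid, pattern-triggered immunity, auxin response or root hair lists was called by edgeR or DESeq2 (0 of 17, 38, 23 and 31), and 3, 5, 2 and 4 members had an unadjusted p under 0.05, beside 3324 of all genes tested. The isochorismate synthase gene ICS2, which is not in the salicylic acid list, was called and is given below. In lbd16-1 itself 12 of 17 salicylic acid genes and 17 of 38 pattern-triggered immunity genes were higher with L384.

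Iron uptake and regulation genes were higher in the difference where they were called. bHLH38 ran at 6.68 to 11.2 CPM (median 9.09) in lbd16-1 with L384 and 3.4 to 5.21 CPM (median 4.51) in lbd16-1 with NB (log2 fold change 1.02 ± 0.32, adjusted p = 0.013), against 6.67 to 9.99 CPM (median 8.62) in Col-0 with L384 and 10.9 to 51.2 CPM (median 16.9) in Col-0 with NB (log2 fold change -1.35 ± 0.29, adjusted p = 9.7e-05). The L384 ranges of the 2 genotypes overlapped, while the NB ranges lay apart, with the lbd16-1 NB mean below and the Col-0 NB mean above both L384 means. The difference of responses was 2.37 ± 0.43 (adjusted p = 4e-04). bHLH39 and NRAMP1, a manganese and iron transporter, differed by 0.89 ± 0.23 and 0.50 ± 0.11 in the same direction. bHLH100 differed by 3.16 ± 0.84 (adjusted p = 0.03), which was lost without Col-0 NB replicate 1 (adjusted p = 0.095). In all 4 of 24 iron genes were higher in the difference and 0 lower, 2 higher without that library and 0 in libraries 1 to 111 alone. DESeq2 called 3 higher and 0 lower, and at an unadjusted p under 0.05 there were 6 higher and 1 lower.

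Sulfur assimilation differed the other way, with 4 of 15 genes lower and 0 higher in the difference (5 and 0 by DESeq2, 8 and 0 at an unadjusted p under 0.05), and 2 lower without Col-0 NB replicate 1. SULTR1;2 ran at 1075 to 1672 CPM (median 1412) in lbd16-1 with L384 and 1085 to 1507 CPM (median 1244) in lbd16-1 with NB (log2 fold change 0.10 ± 0.11, adjusted p = 0.59), against 1087 to 1473 CPM (median 1221) in Col-0 with L384 and 639 to 934 CPM (median 820.2) in Col-0 with NB (log2 fold change 0.67 ± 0.11, adjusted p = 8.2e-08). SHM7, which supplies methyl groups, and APR1 and APR3, which reduce sulfate, differed by -0.58, -0.48 and -0.48. In lbd16-1, 12 of 15 sulfur genes, 12 of 17 suberin genes and 13 of 16 phenylpropanoid genes were lower with L384 than with NB. The difference itself was called for 2 suberin genes, ABCG6 and KCS2, and 2 phenylpropanoid genes, 4CL1 and CYP98A3, at -0.72 to -0.31. NRT1.5, which loads nitrate into the xylem, ran at 1051 to 1276 CPM (median 1175) in lbd16-1 with L384 and 615 to 813 CPM (median 698) in lbd16-1 with NB (log2 fold change 0.73 ± 0.09, adjusted p = 3.8e-11), against 752 to 894 CPM (median 859) in Col-0 with L384 and 519 to 860.2 CPM (median 774) in Col-0 with NB (log2 fold change 0.15 ± 0.09, adjusted p = 0.22), and GDH1 differed by 0.50 ± 0.11.

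Of the genes named for the largest differences, LAC12, a laccase, ran at 4.51 to 6.91 CPM (median 5.86) in lbd16-1 with L384 and 14.4 to 21.6 CPM (median 17.6) in lbd16-1 with NB (log2 fold change -1.62 ± 0.17, adjusted p = 1.2e-14), against 6.12 to 9.13 CPM (median 8.46) in Col-0 with L384 and 8.04 to 13.1 CPM (median 10.1) in Col-0 with NB (log2 fold change -0.41 ± 0.17, adjusted p = 0.06). ICS2, an isochorismate synthase, ran at 24.8 to 41.8 CPM (median 34.0) in lbd16-1 with L384 and 41.1 to 105 CPM (median 67.5) in lbd16-1 with NB (log2 fold change -1.03 ± 0.22, adjusted p = 0.00011), against 29.4 to 40.4 CPM (median 38.8) in Col-0 with L384 and 17.5 to 50.0 CPM (median 30.8) in Col-0 with NB (log2 fold change 0.25 ± 0.23, adjusted p = 0.43). For LAC12 every lbd16-1 NB library lay above all libraries of the 3 other groups, and for ICS2 the groups overlapped. AT4G31330, HAF2 and CYP705A12 were lower in the difference, by 1.40, 1.19 and 1.15. The large positive differences of AT2G01020 (4.63), AT5G42825 (7.56) and the chloroplast gene ATCG00020 (2.75) rested on 1 or 2 Col-0 NB libraries. AT2G01020 is a ribosomal RNA gene of many copies whose reads are shared, and it stood at 2218 CPM in Col-0 NB replicate 4, 155 CPM in replicate 5 and at most 28.9 CPM in the 4 others, so that without replicate 4 the adjusted p was 0.13. AT5G42825 and ATCG00020 lost their calls without Col-0 NB replicate 5 (adjusted p = 0.10 and 0.21).

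**Figure D4:**
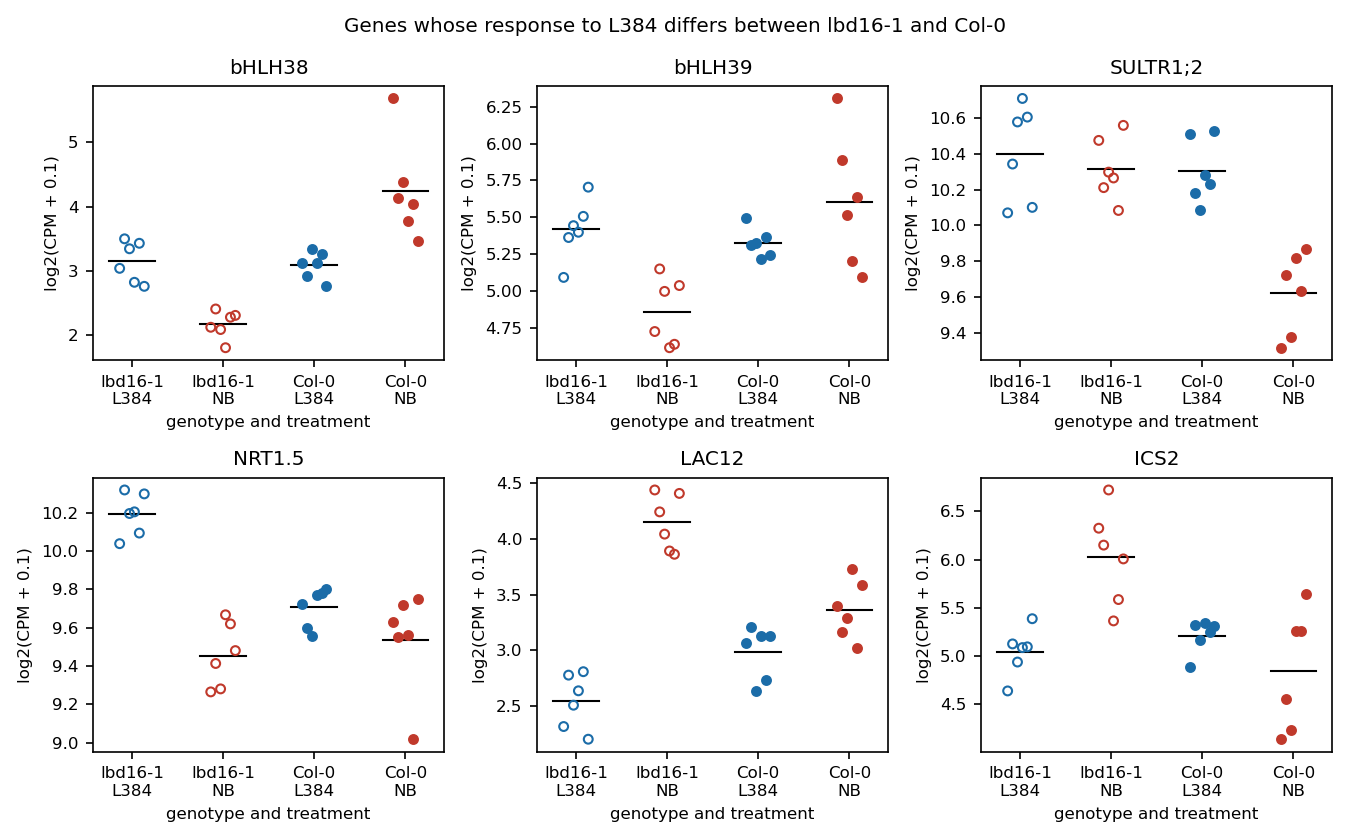
Levels of bHLH38, bHLH39, SULTR1;2, NRT1.5, LAC12 and ICS2, as log2(CPM + 0.1), in single libraries of lbd16-1 with L384, lbd16-1 with NB, Col-0 with L384 and Col-0 with NB (left to right, 6 libraries each). The bars are group means on this scale. For bHLH38 the L384 means of both genotypes lie between the NB means, and for LAC12 the lbd16-1 NB libraries lie above the other groups.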

How the data were processed

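RNA from pooled roots was sequenced after oligo(dT) capture. Per the study's methods and the submitters' processing notes, the authors used fastp (0.20.1) for trimming and Salmon (1.6.0) for quantification and summarised transcripts to genes with tximport, and they deposited estimated counts as whole numbers. The tximport scaling option and the strand setting are not given in the sources used here, and the kit is not said to mark strand, so reads of overlapping antisense genes cannot be told apart. The authors fitted 1 DESeq2 model with a term per genotype and treatment. Here the counts were fitted in edgeR (4.0.16, R 4.3.3, limma 3.58.1) with 1 term per group over all 222 libraries in 37 groups, TMM factors, filterByExpr by group, a prior count of 0.125 and robust quasi-likelihood tests, with Benjamini-Hochberg adjustment within each comparison and a threshold of 0.05. In simulated counts for the comparison of L384 with NB, over 21424 genes, the test recovered 99% of genes changed by 1 on the log2 scale, and 7.04% of its calls were false. Those counts had 100 genes changed by 1 and 100 by 2, all above a minimum mean level. Each gene had the same spread in every group. The rates therefore do not cover genes near 0, the many changed genes of the real comparison or the wider spread of the NB libraries.

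Groups came from the labels. Replicate numbers follow accession order and pair nothing. Genes were named per comparison from those called, with the same sign in both ranges of library numbers and a mean of at least 1 CPM in the higher group: the 15 highest and 15 lowest fold changes against NB, 10 and 10 against the other 15 strains, and 5 and 5 in the other comparisons. CPM could not overlap between the groups compared with NB, L344 or L469, while overlap was allowed against the 15 strains. For the difference of responses, which involves 4 groups, the log2 level of each L384 library was taken minus its genotype's NB mean. These values could not overlap between lbd16-1 and Col-0, although the CPM themselves could. In lists given in detail, up to 4 called members with the largest changes were eligible, and auxin and ethylene genes whether called or not; smaller or mixed lists were given mainly by counts, and other members and the promoters shown were named after their values were seen. The members and the 33 lists (612 genes) were chosen with earlier results of these data known. Names and promoters came from RefSeq, where 32064 of 32311 identifiers matched (99.2%). Alternatives were DESeq2 (1.42.0), DESeq2's size factors in edgeR, other filters and thresholds, the compared libraries alone, each range of library numbers alone or as a covariate, and leaving out each L384 and NB library of Col-0. Figures and summaries used Python 3.11.15, pandas 2.3.3 and matplotlib 3.10.9.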

Additional observations from a re-analysis of the deposited data

Results flagged for a closer look

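The L384 and NB groups of 101 genes gave 202 groups of 6 libraries. In 27 of them a library lay far from the 5 others, with Dixon's gap ratio past its 95% critical value. Chance alone flags about 5% of groups of unselected values. The genes checked were chosen with their values in these libraries known, so that share is no measure of chance here. NB replicate 1 accounted for 15 of the 27. It was the highest NB library for AT5G09570 (6.52 CPM), NDB4 (4.72 CPM), DOGT1 (15.3 CPM), HRE2 (5.95 CPM), AT3G54530 (4.16 CPM), MYB102 (3.31 CPM), GRP20 (4.94 CPM), G6PD3 (218.6 CPM), bHLH100 (6.85 CPM), NAS2 (260.8 CPM), bHLH38 (51.2 CPM), PDC1 (63.0 CPM), NAC13 (38.8 CPM) and GH3.3 (76.9 CPM), and the lowest for the aquaporin PIP2;4 (28.7 CPM).

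Other NB libraries stood highest once or a few times. Replicate 2 did so for AT1G33840 (1.46 CPM), GH3.2 (66.9 CPM) and PR-1-LIKE (18.0 CPM), replicate 3 for THA1 (4.96 CPM), replicate 4 for the ribosomal RNA gene AT2G01020 (2218 CPM), replicate 5 for AT5G42825 (15.3 CPM) and replicate 6 for AT3G55790 (4.22 CPM). Among the L384 libraries, replicate 6 stood highest for CYP710A3 (5.77 CPM), FLS2 (1.70 CPM) and AT1G54950 (3.44 CPM) and replicate 5 for the root hair gene XTH26 (6.13 CPM), while replicate 2 stood lowest for FRK1 (0.810 CPM).

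The response to L384 differed between lbd16-1 and Col-0 by the test of the difference itself for 10 genes named for their size of change. The difference, lbd16-1 minus Col-0 on the log2 scale with its adjusted p from edgeR, was 7.56 for AT5G42825 (0.019), 4.63 for AT2G01020 (2.5e-06), 3.16 for bHLH100 (0.03), 2.75 for ATCG00020 (0.038) and 2.37 for bHLH38 (4e-04). It was -1.40 for AT4G31330 (0.0045), -1.29 for ICS2 (0.016), -1.21 for LAC12 (0.002), -1.19 for HAF2 (0.015) and -1.15 for CYP705A12 (0.01). The calls of AT5G42825, AT2G01020, bHLH100 and ATCG00020 were each lost when a single Col-0 NB library was left out. Those of ICS2 and CYP705A12 were lost in a fit of the compared groups alone.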

How the results depend on the processing

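DESeq2, its size factors in edgeR, an unfiltered or stricter gene filter and library range as a covariate kept every count of called genes within 1.5 times its value. At an adjusted p under 0.01 the counts were 3810 against NB, 793 against the other 15 strains, 418 against L344, 181 against L469 and 72 for the difference of responses, and at 0.1 the last 2 were 872 and 629. Requiring an absolute log2 fold change of at least 1 left 651, 148, 174, 69 and 29, and 616 for lbd16-1 with L384 against NB. Fits of only the compared libraries called 3910 against NB, 518 against L344, 1033 against L469 and 56 for the difference of responses. Libraries 1 to 111 alone gave 3017, 805, 394, 185 and 15, and 2142 in lbd16-1. Libraries 112 to 222 alone gave 3898, 688, 499, 349 and 218, and 3435 in lbd16-1. Leaving out 1 library gave 4748 to 6485 against NB, 889 to 1200 against the other strains (889 without L384 replicate 4), 612 to 823 against L344, 229 to 508 against L469 (229 without L384 replicate 4, 328 without replicate 6) and 165 to 545 for the difference of responses (180 without L384 replicate 2, 165 without NB replicate 5, 545 without NB replicate 6). The cause of these moves was not tested. Counts for lbd16-1 with L384 against NB, for gene lists and for genes named outside the comparison with NB were recomputed under alternatives chosen after seeing the data.

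Counted once per gene fold change and alternative, 278 results lost the call, 5 gained one and 6 changed sign, against 4012 that did neither. Losses were most frequent in fits of 1 range of library numbers. In libraries 1 to 111 alone 71 fold changes lost the call and 145 stayed the same. In libraries 112 to 222 alone 47 lost it and 169 stayed the same. The sign changes were ICS2 against NB, at -0.11 in libraries 1 to 111, and DIN11 against NB, which was not called and was at 1.62 in libraries 112 to 222 and at -0.55 to 0.91 with single libraries left out. ICS2, CYP705A12, AT2G01020 and AT5G42825 lost their difference of responses in a fit of the 4 groups alone (adjusted p = 0.11, 0.14, 0.18 and 0.09). No paired analysis was possible because the replicate numbers follow accession order and mark no shared plate, batch or day. Genes under a few counts per library, such as AT3G21305 and FLS2, are limited by depth.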
